A study of Mus musculus with 36 samples.

Results

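The Dppa genes (developmental pluripotency associated) are a set named for their expression in pluripotent cells and not for a shared ancestry. Dppa2, Dppa3, Dppa4 and Dppa5a were taken by name from a table of 21442 mouse genes, giving 4 genes, all 4 of which had reads. Their levels were followed from fibroblasts through reprogramming to stem cells, with and without Zfp266, a KRAB zinc finger gene.

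Dppa2 and Dppa4 encode SAP domain proteins that bind chromatin as a pair, keep the promoters of developmental genes open to later activation, and in ESCs switch on Dux and through it the Zscan4 genes of the 2-cell embryo. Dppa5a (also called Esg1) encodes a KH domain RNA-binding protein. Dppa3 (Stella or PGC7) encodes a maternal and germ cell protein that limits DNA methylation by holding back UHRF1, and it is known to be expressed by some but not other cells of an ESC culture. All 4 are silent in fibroblasts and are used as markers of late reprogramming, when cells take on the programme of naive pluripotency.

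RNA-seq was available for 36 libraries, 3 for each of 12 groups formed by 6 stages and 2 genotypes. MEFs were passage 2 fibroblasts of strain 129 from E12.5 embryos. They carried Cas9, a Nanog-GFP reporter and a doxycycline-inducible MKOS cassette, and received a lentiviral non-targeting sgRNA (Wt) or a Zfp266 sgRNA (KO), with RNA taken 96 h after transduction. Day 3, 5 and 7 cells were such MEFs kept in ESC medium with 300 ng/ml doxycycline and vitamin C, seeded among unmodified 129 MEFs and sorted for mOrange, the marker of the cassette. iPSCs were expanded clones of strain 129, 3 a genotype. KO ESCs were 3 clones and Wt ESCs were 3 samples of the 1 parental line from which those clones came, so the spread among Wt ESCs was not a spread among clones. KO MEFs and KO reprogramming cells were transduced populations, not clones.

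Depth ranged from 19224103 to 39610939 counts a library, and 3 counts, the upper limit that a count of 0 allows, corresponded to 2.31 to 5.22 normalised counts. Such limits cover counting error only. Zfp266 transcript itself did not fall by the calling rule at any stage (log2 fold change 0.12 in MEFs, 0.32 on day 3 and -0.39 in iPSCs, KO over Wt), and read counts do not measure the loss of protein that an edit in the reading frame causes. The summed level of 12 fibroblast markers was 644666 to 660670 in Wt MEFs, 24418 to 29443 in Wt cells on day 5 and 20959.9 to 34932 in Wt iPSCs, where Fn1, the fibronectin gene, made up nearly all of it. Without Fn1, left out after the values were seen, the sum of the other 11 was 424098 to 439526 in Wt MEFs, 164.9 to 205.8 in Wt iPSCs and 131.6 to 159.7 in Wt ESCs. The summed level of 18 pluripotency genes other than the members was 2772 to 3019 in Wt MEFs, 138854 to 148537 in Wt iPSCs and 142865 to 149899 in Wt ESCs. 1 library stood apart: Wt iPSC clone 2 had a summed level of 9.47 over 12 genes of the 2-cell embryo, against 1912 and 1783 in the other Wt clones.

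Dppa4 and Dppa2 lie side by side on the plus strand of chromosome 16 (GRCm38), Dppa4 at chr16:48283733-48294237 with 7 exons and Dppa2 at chr16:48303908-48319723 with 8 exons, 9671 bp apart. Dppa3 lies on the plus strand at chr6:122626410-122630272 with 5 exons, 16.3 kb from Gdf3 and 77.2 kb from Nanog. Dppa5a lies on the minus strand at chr9:78367052-78368177 with 3 exons, 7.93 kb from Ooep. No exon of a member overlapped an exon of another annotated gene.

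Reads of Dppa5a can be shared with copies of the gene. The annotated pseudogenes Dppa5b and Dppa5c have transcripts of 348 bases that are identical to each other, and 313 of 343 aligned bases (91.3%) are shared with Dppa5a. The longest shared run is 104 bases, positions 198 to 301 of the 619-base Dppa5a transcript and inside its coding sequence (79 to 432). The run is shown with 25 bases on either side, because it is where a read cannot be assigned to 1 of the copies. Capitals mark the bases that differ, and the sequences are from the GENCODE M21 transcripts of GRCm38, 5′ to 3′.
Dppa5a: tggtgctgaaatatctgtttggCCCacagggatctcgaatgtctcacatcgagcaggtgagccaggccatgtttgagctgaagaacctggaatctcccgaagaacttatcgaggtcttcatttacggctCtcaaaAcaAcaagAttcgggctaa
Dppa5b: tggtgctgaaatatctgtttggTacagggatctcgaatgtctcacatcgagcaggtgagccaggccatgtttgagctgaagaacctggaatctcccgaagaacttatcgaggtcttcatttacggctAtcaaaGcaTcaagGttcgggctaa
Dppa5c: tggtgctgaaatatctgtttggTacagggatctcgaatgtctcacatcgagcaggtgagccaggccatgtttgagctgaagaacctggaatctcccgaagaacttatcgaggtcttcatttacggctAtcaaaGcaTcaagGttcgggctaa
Of the 545 positions at which a 75-base read of Dppa5a can start, 30 (5.50%) put the whole read inside this run. Of the 23 libraries with reads of either copy, 14 listed Dppa5b and Dppa5c with equal counts, and the others differed by at most 8 counts, and in the 18 libraries with 30 or more counts of Dppa5b that count was 6.0% to 7.91% of the Dppa5a count. Transcription of the pseudogenes and reads of Dppa5a placed on them therefore cannot be told apart, and values listed for Dppa5b and Dppa5c are not read as those of separate genes. Dppa3 has 1 such copy, Dppa3-ps, which shares 443 of 451 aligned bases (98.2%). It had few counts, for example 5 beside 193 of Dppa3 in KO replicate 1 on day 7.

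Before day 5 the 4 genes were near the limit of detection, with Dppa4 the exception. In the 6 MEF libraries Dppa3 and Dppa4 had no read, and Dppa2 and Dppa5a had 1 read each, both in KO. No fold change is given for MEFs, where 0 of 4 genes were called beside 0.0143% of all genes called higher in KO (0 at an unadjusted p under 0.05 and 0 by edgeR). Here a gene was called where FDR (the Benjamini-Hochberg adjusted p of DESeq2 over all genes tested) was under 0.05 and the log2 fold change was over 1 in size.

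Dppa4 had 10, 9 and 1 counts in Wt and 13, 5 and 10 in KO on day 3. The genotypes overlapped on day 3 (log2 fold change 0.39 ± 0.45 (SE), FDR = 1). Against Wt MEFs, with no read, Dppa4 was at least 4.65-fold higher in Wt on day 3, the floor being 3 counts over the group (FDR = 0.00032), and in KO it was at least 7.81-fold higher than in KO MEFs (FDR = 1.89e-05). Thus 1 of 4 members rose in Wt from MEFs to day 3, where 19.5% of genes rose, and 2 of 4 in KO, where 20.0% rose.

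Dppa5a was the other member to rise in KO from MEFs to day 3. Its counts on day 3 were 0, 0 and 0 in Wt and 1, 3 and 24 in KO, so that 1 KO library held most of the reads. KO was at least 8.72-fold above Wt by the floor of 3 counts over the group, and the call (FDR = 0.00723) was the 1 call among 4 members on day 3, beside 0.119% of all genes. That call was not firm. Without KO replicate 3 FDR was 0.623. It was 0.0773, 0.0782 and 0.114 without Wt replicate 1, 2 and 3 in turn. By edgeR FDR was 0.863, and by limma on the deposited log2 values it was 0.708. The rise of Dppa5a in KO from MEFs to day 3 also ended without KO replicate 3 of day 3 (FDR = 0.174) and by edgeR (FDR = 0.0726). Dppa2 had 1, 0 and 0 counts in Wt and 3, 1 and 2 in KO on day 3, a ratio of 5.61 with an exact 95% counting interval of 0.680 to 258. Dppa3 had 1 count in Wt and 2 in KO, both at or under the floor.

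**Figure D1:**
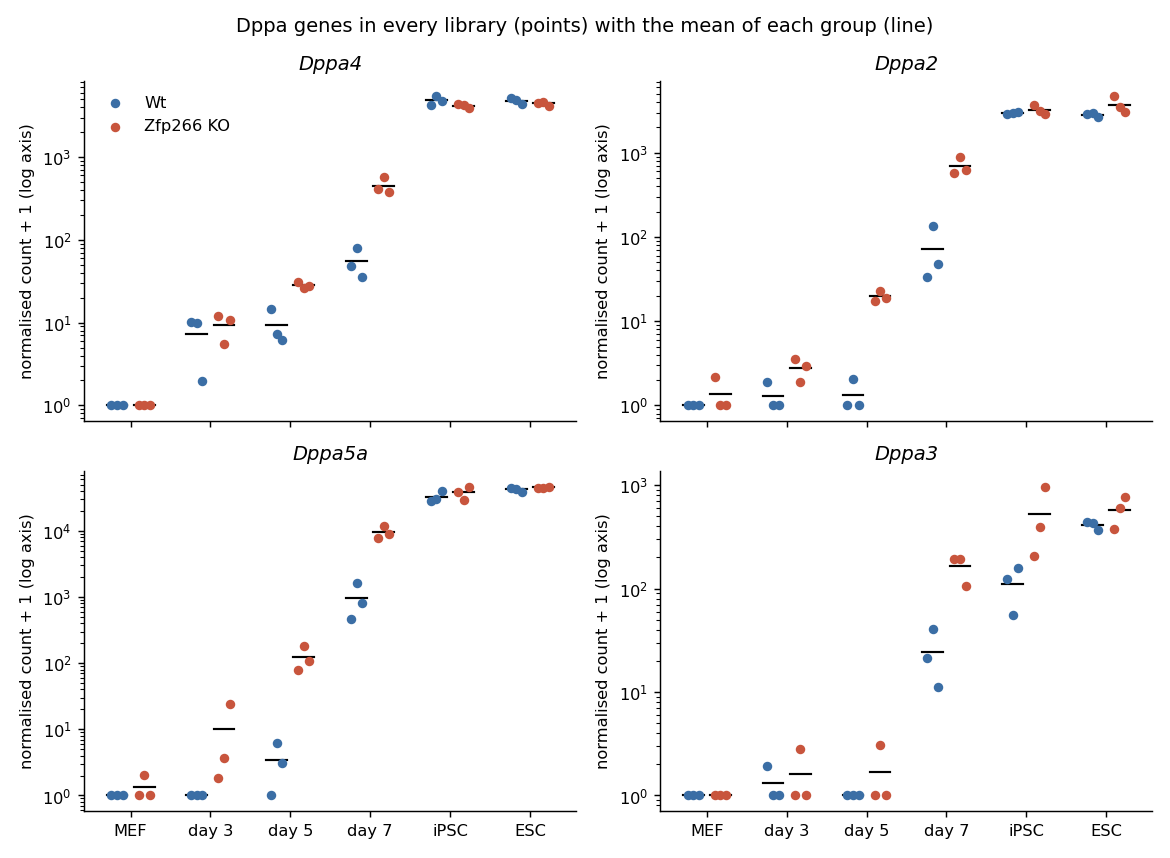
Normalised count plus 1 (log axis) of Dppa4, Dppa2, Dppa5a and Dppa3 in each of the 36 libraries, by stage, with Wt libraries in blue, KO libraries in red and the group mean as a line. On day 7 the KO libraries lie above the Wt libraries for each of the 4 genes, whereas in iPSCs the genotypes are separate for Dppa3 alone.

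On day 5 Dppa5a, Dppa2 and Dppa4 were higher in KO than in Wt, whereas Dppa3 was still close to 0. These were 3 of 4 members called higher, beside 0.808% of all genes. Dppa5a had 0, 5.16 and 2.08 normalised counts in Wt and 79.2, 182.5 and 106.4 in KO, a 50.8-fold difference (log2 fold change 5.69 ± 0.77, FDR = 7.73e-11). Each KO library was above each Wt library by more than 10 times. Dppa2 had 1 read in the 3 Wt libraries together and 17, 21 and 23 counts in KO. The ratio of these was 54.7 with an exact 95% counting interval of 9.46 to 2196 (FDR = 0.000228). Dppa4 had 13.6, 6.19 and 5.20 normalised counts in Wt and 29.6, 25.2 and 27.0 in KO. Its difference of 3.27-fold was the smallest of the 3 (log2 fold change 1.69 ± 0.37, FDR = 0.000226), and the groups did not overlap. In a Wald test against a log2 fold change of 1 the calls of Dppa2 (FDR = 0.230) and Dppa4 (FDR = 1) ended. Dppa3 had no read in Wt on day 5 and 2 reads, in 1 library, in KO.

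Between day 3 and day 5 the members changed little in Wt cells. The call on Dppa5a, from no read to 7 reads, was the 1 of 4 in Wt beside 4.94% of all genes, and it ended without Wt replicate 2 of day 5 (FDR = 0.310), without any 1 of the day 3 Wt libraries, and by edgeR (FDR = 0.422). The 2 sets of libraries also overlapped. Dppa4 in Wt moved by 0.40 ± 0.46 on the log2 scale over this interval. In KO 3 of 4 members rose from day 3 to day 5, beside 5.74% of all genes. Dppa5a rose 13.7-fold (FDR = 8.14e-09), Dppa2 rose 10.5-fold (FDR = 9.66e-06) and Dppa4 rose 3.26-fold (FDR = 1.66e-05). The KO effect itself was not found to differ between day 3 and day 5 for any of the 4 (FDR of 0.817 or more by the interaction term of DESeq2, with 0.064% of all genes passing). By an unadjusted p under 0.05, 1 member passed, Dppa4, and by edgeR 0.

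Day 7 was the stage at which the 4 genes were all expressed in both genotypes and all higher in KO. The 4 of 4 called higher stood beside 3.95% of all genes. Dppa2 had 32.5, 132.9 and 47.3 normalised counts in Wt and 569, 899.9 and 621 in KO. Wt replicate 2 was the highest of the Wt libraries for Dppa2, and it was so for the other members too. The difference was 9.83-fold (log2 fold change 3.30 ± 0.31, FDR = 7.16e-24). Dppa4 had 47.7, 78.5 and 35.0 normalised counts in Wt and 408, 571 and 374 in KO, a difference of 8.39-fold (log2 fold change 3.07 ± 0.20, FDR = 4.69e-47). Both partners thus stood apart between the genotypes with no overlap of libraries.

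Dppa5a had 462, 1627 and 815 normalised counts in Wt on day 7 and 7716, 11687 and 9023 in KO. This 9.79-fold difference (log2 fold change 3.29 ± 0.54, FDR = 2.98e-08) was close in size to those of Dppa2 and Dppa4. Dppa3 had 20.3, 39.3 and 10.3 normalised counts in Wt and 193.8, 191.7 and 104.4 in KO. It had the smallest value of the 4, 7.01-fold (log2 fold change 2.81 ± 0.63, FDR = 8.46e-05). In the Wald test against a log2 fold change of 1, Dppa3 no longer passed (FDR = 0.345), and the other members did. The standard errors of the 4 values overlapped, and no order among them is drawn. Under 15 alternative settings each, the log2 fold changes on day 7 lay between 2.95 and 4.13 for Dppa2, 2.84 and 3.45 for Dppa4, 2.96 and 3.89 for Dppa5a and 2.45 and 3.42 for Dppa3. In bulk libraries more cells expressing a gene and more RNA in each cell cannot be told apart.

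**Figure D2:**
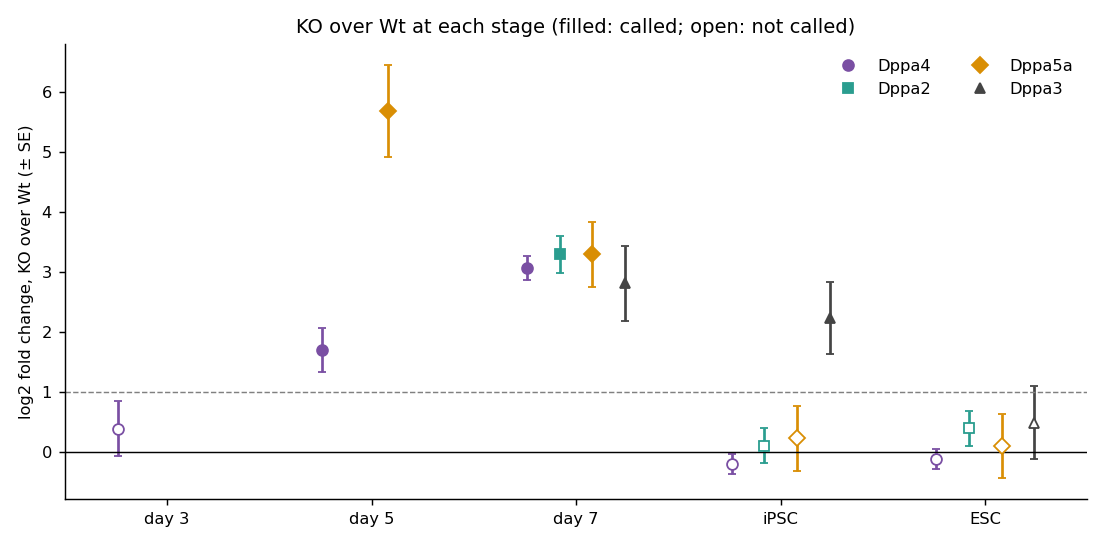
Log2 fold change of KO over Wt with its SE (bars) at each stage for the 4 genes, filled where the gene was called and open where it was not; the dashed line is a log2 fold change of 1. Values that rested on 3 or fewer counts in Wt (days 3 and 5, for Dppa2, Dppa3 and in part Dppa5a) and MEFs are left out. The 4 day 7 values lie between 2.81 and 3.30, and in iPSCs the filled point is Dppa3.

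From day 5 to day 7 the 4 genes rose in both genotypes, 4 of 4 in Wt beside 4.74% of all genes and 4 of 4 in KO beside 8.84%. In Wt Dppa5a rose 401-fold (FDR = 9.07e-27) and Dppa4 6.45-fold (FDR = 3.11e-12). Dppa2 rose 211-fold with a counting interval of 37.4 to 8358, and Dppa3 rose at least 23.1-fold from no read. In KO the rises were 77.2-fold for Dppa5a, 37.3-fold for Dppa2 and 16.5-fold for Dppa4. Dppa3 in KO went from 2 reads on day 5 to 527 on day 7, a ratio of 268 with a counting interval of 73.9 to 2221. Between day 5 and day 7 the KO effect changed by -2.39 for Dppa5a, -2.38 for Dppa2 and 1.08 for Dppa3 on the log2 scale. None of these changes passed (FDR of 0.112 or more by the interaction term of DESeq2). At an unadjusted p under 0.05, 1 member had a larger effect on day 7 and 1 a smaller one. By FDR the KO effect was larger on day 7 for Dppa4 alone, by 1.37 ± 0.42 (FDR = 0.0253). This was 1 of 4 members, where 465 of 16447 genes tested were larger and 5.84% differed in either direction. That call ended by edgeR (FDR = 0.219) and without Wt replicate 1 of day 5 (0.81 on the log2 scale, FDR = 0.460), Wt replicate 1 (FDR = 0.0653) or Wt replicate 3 of day 7 (FDR = 0.101), KO replicate 3 of day 5 (FDR = 0.0562) or KO replicate 2 of day 7 (FDR = 0.0770).

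KO cells on day 5 had not reached the levels of Wt cells on day 7. By DESeq2 0 of the 4 members were higher in day 5 KO than in day 7 Wt, where 0.455% of all genes were (0 by unadjusted p and 0 by edgeR), and 3 were lower, beside 4.16% of all genes. Dppa3 was at 0.030 times the Wt day 7 level (FDR = 0.000277), Dppa5a at 0.127 times (FDR = 2.73e-06) and Dppa2 at 0.263 times (FDR = 4.29e-06). Dppa4 was at 0.507 times, with an FDR of 0.00174 but a log2 fold change of -0.98, just inside the required size. Without Wt replicate 3 of day 7 it was -1.21 and passed. In a Wald test against a log2 fold change of 1, a stricter null, none of the 3 lower calls was kept (FDR = 0.156 for Dppa3, 0.129 for Dppa5a and 1 for Dppa2).

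Set against the mean of Wt ESCs, the 4 genes were at different points of the same path on day 7. In Wt cells Dppa4 was at 1.12% ± 0.47 (SD, n = 3) of the Wt ESC level, Dppa5a at 2.28% ± 1.41, Dppa2 at 2.50% ± 1.91 and Dppa3 at 5.65% ± 3.57. In KO cells the same order held, with Dppa4 at 9.36% ± 2.18, Dppa5a at 22.3% ± 4.77, Dppa2 at 24.6% ± 6.28 and Dppa3 at 39.6% ± 12.4. Dppa4, the 1 member that rose in Wt from MEFs to day 3, was thus the one farthest from its ESC level on day 7. In the KO libraries its range, 7.76% to 11.8%, did not reach the lowest KO library of any other member.

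From day 7 to iPSCs the 4 genes rose in both genotypes. In Wt 4 of 4 members rose beside 20.0% of all genes, Dppa4 by 89.8-fold, Dppa2 by 42.2-fold, Dppa5a by 33.8-fold and Dppa3 by 4.77-fold. In KO 4 of 4 rose beside 19.0%, Dppa4 by 9.29-fold, Dppa2 by 4.62-fold, Dppa5a by 4.04-fold and Dppa3 by 3.19-fold. The rise of Dppa3 in KO (FDR = 0.00944) ended without KO iPSC clone 3 (FDR = 0.101) or without KO replicate 3 of day 7 (FDR = 0.0544). The KO effect fell from day 7 to iPSCs for 3 of 4 members. Of 21436 genes tested it fell for 2092 and rose for 2601, which together are 21.9%. The KO effect fell by 3.27 on the log2 scale for Dppa4 (SE 0.26, FDR = 2.13e-31), by 3.19 for Dppa2 (SE 0.43, FDR = 1.18e-11) and by 3.07 for Dppa5a (SE 0.76, FDR = 0.00077). For Dppa3 the change of the KO effect was -0.58 ± 0.87, with an FDR of 0.711.

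In iPSCs Dppa2, Dppa4 and Dppa5a overlapped between the genotypes and were not called. Dppa2 had 2919, 2987 and 3076 normalised counts in Wt clones and 3669, 3143 and 2849.8 in KO clones (log2 fold change 0.11, 95% interval -0.47 to 0.68). Dppa4 had 4305, 5393 and 4769 in Wt and 4372, 4309 and 3887 in KO (-0.20, interval -0.53 to 0.12). Dppa5a had 28120.3, 29960.4 and 40082 in Wt and 38844, 29196 and 46694 in KO (0.23, interval -0.83 to 1.28). These intervals exclude a difference of the size seen on day 7.

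Dppa3 was the 1 of 4 members called higher in KO iPSCs, where 3.95% of all genes were. It had 121.8, 54.3 and 156.8 normalised counts in the Wt clones and 206, 389 and 969 in the KO clones. The lowest KO clone was above the highest Wt clone, and the KO clones ranged over 4.71-fold among themselves. The difference was 4.70-fold (log2 fold change 2.23 ± 0.61, FDR = 0.00341). It stayed called without any single clone, between 1.42 (without KO clone 3) and 2.61 (without KO clone 1) on the log2 scale, and it was 1.90 without the Wt clone that stood apart (FDR = 0.0350). By edgeR FDR was 0.00209. In a fit of the 2 iPSC groups by themselves FDR was 0.0696 at a log2 fold change of 2.21, and in the Wald test against a log2 fold change of 1 it was 1.

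Wt iPSCs held less Dppa3 than Wt ESCs, which had 435, 433 and 368 normalised counts. The Wt iPSC mean was 26.9% ± 12.6 of the Wt ESC mean, with no overlap, but the test missed the threshold (log2 difference 1.89 ± 0.61, FDR = 0.0539). It passed in a fit of the 2 groups by themselves (FDR = 3.58e-07) and without Wt iPSC clone 3 (FDR = 0.0185). In the fit of the 2 groups the SE was 0.30. That SE rests in part on the Wt ESC samples, which are of 1 line and were treated as independent. KO iPSCs were at 126.4% ± 96.7. From iPSCs to ESCs 0 of 4 members were called higher in Wt, beside 0.126% of all genes, and 0 of 4 in KO, beside 0.113% (by DESeq2; 1 in Wt and 0 in KO at an unadjusted p under 0.05, and 0 and 0 by edgeR).

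In ESCs 0 of 4 members were called higher in KO by DESeq2, beside 0.741% of all genes (0 at an unadjusted p under 0.05 and 0 by edgeR). Dppa3 had 373, 596 and 763 normalised counts in the KO clones (log2 fold change 0.49, 95% interval -0.70 to 1.67). Dppa2 had 2869.9, 2947 and 2680.4 in Wt and 4650.0, 3464 and 3024 in KO. The KO clones lay above the Wt samples without overlap, at a log2 fold change of 0.39 (interval -0.18 to 0.96, FDR = 0.447). Dppa4 (-0.12, interval -0.44 to 0.21) and Dppa5a (0.10, interval -0.96 to 1.16) overlapped. The KO effect did not pass the test of a difference between iPSCs and ESCs for any member, beside 1.47% of all genes (1 at an unadjusted p under 0.05, which was Dppa3, and 0 by edgeR), and for Dppa3 the change was -1.75 ± 0.86 (FDR = 0.370).

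Ordered by mean level over the 12 groups, Dppa2, Dppa4 and Dppa5a had the same upper part of the order, with day 5 KO below day 7 Wt, day 7 Wt below day 7 KO, and day 7 KO below the 4 pluripotent groups, each step without overlap of libraries. Among the 4 pluripotent groups each group overlapped the next in order for these 3 genes. Dppa3 differed in that Wt iPSCs, at 110.9 ± 52.1 normalised counts, came before day 7 KO cells, at 163 ± 51.0, with which they overlapped. At the lower end, MEFs and Wt cells of days 3 and 5 overlapped for Dppa2, Dppa3 and Dppa5a.

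Per kb of exon, Dppa5a was the most abundant of the 4 by far. It had 68516 ± 5260 normalised counts per kb in Wt ESCs, against 2898 ± 217 for Dppa4, 1157 ± 56.0 for Dppa2 and 462 ± 42.6 for Dppa3. On day 7 in KO the levels per kb were 15307 ± 3270 for Dppa5a, 285 ± 72.7 for Dppa2, 271 ± 63.3 for Dppa4 and 183 ± 57.2 for Dppa3. Dppa2 and Dppa4 were therefore at like levels per kb on day 7, whereas Dppa4 was the higher of the pair in ESCs.

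The ratio of Dppa2 to Dppa4 per kb was taken in each library and compared after its values had been seen. It was 0.462, 1.15 and 0.919 in Wt and 0.949, 1.07 and 1.13 in KO on day 7. In iPSCs it was 0.461, 0.376 and 0.438 in Wt and 0.570, 0.495 and 0.498 in KO. In ESCs it was 0.379, 0.410 and 0.411 in Wt and 0.695, 0.505 and 0.499 in KO. 5 of the 6 day 7 libraries were above each of the 12 iPSC and ESC libraries, and Wt replicate 1, with 32 and 47 counts, lay among them. Averaged on the log2 scale, the ratio on day 7 was 1.92 times that of ESCs and 1.93 times that of iPSCs (exact two-sided permutation test within genotype, p = 0.005 for each, the smallest that 400 permutations can give, and 0.0075 adjusted over 3 comparisons), and iPSCs and ESCs were not found to differ (p = 0.915). Without any single library the exact permutation p was at most 0.015. These p-values come from the libraries that prompted the comparison, so they describe the separation and are no independent test of it. The Wt ESC samples, which are of 1 line, were permuted as if independent. On day 5 in KO, with 17 to 35 counts of each gene, the ratio was 0.372, 0.594 and 0.446.

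**Figure D3:**
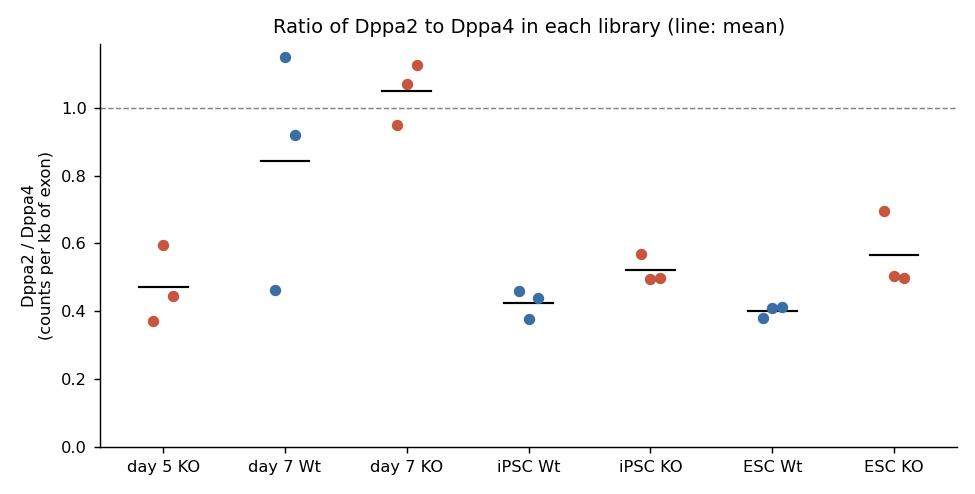
Ratio of Dppa2 to Dppa4 counts per kb of exon in each library of day 5 KO, day 7, iPSCs and ESCs, with the group mean as a line; blue is Wt, red is KO and the dashed line is a ratio of 1. The day 7 KO libraries lie at 0.949 to 1.13 and the Wt ESC libraries at 0.379 to 0.411.

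The 4 genes differed in how much they varied among samples of 1 group. In iPSCs the SD within groups on the log2 scale was 0.13 for both Dppa2 and Dppa4, near the median of 0.13 for genes within 2-fold of their level. It was 0.31 for Dppa5a and 0.97 for Dppa3, more than in 96.0% and 98.8% of genes of like level. On day 7 it was 0.77 for Dppa2, 0.47 for Dppa4, 0.68 for Dppa5a and 0.74 for Dppa3, above 96.9% or more of genes of like level for each of the 4. In ESCs Dppa3 again varied more (0.38) than 98.5% of such genes, and Dppa2 (0.23) more than 97.9%. Genes of like level were matched on the mean over both genotypes. On day 7 that mean was 384 for Dppa2 and 93.3 for Dppa3, above their Wt means of 70.9 and 23.3. The day 7 shares thus set the Wt libraries beside genes of higher level. All of these values are descriptions of 3 samples a group.

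Across the 12 iPSC and ESC libraries, Dppa3 and Dppa5a moved together most (r = 0.73, rho = 0.84), and r was 0.44 without the 2 libraries whose Dppa3 was farthest from the median. Dppa2 and Dppa4, the neighbouring partners, did not move together there (r = -0.01, rho = 0.06), and Dppa3 with Dppa4 gave r = -0.56 (rho = -0.34). The libraries share groups and clones, and no test is given for these values.

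The genes with the most similar pattern over the 36 libraries, by Pearson correlation of log2(normalised count + 1) among genes with a mean of 10 or more, were Gm9788, Triml1 and Ranbp17 for Dppa2 (r of 0.998 to 0.993) and Nfatc2ip, Etaa1, Slc2a3, Pask and Gm14058 for Dppa4 (0.993 to 0.990). For Dppa5a they were Dppa2, Triml2 and Triml1 (0.989 for each). The other two of the 5 were Dppa5b and Dppa5c for both Dppa2 and Dppa5a, whose counts may be reads of Dppa5a, and no likeness is read from them. For Dppa3 they were Gm6798, Khdc3, Otx2, Ccdc117 and Mageb16 (0.980 to 0.974). These orders were not firm: with a pseudocount of 10, or over the 18 reprogramming libraries by themselves, between 0 and 3 of the 5 names were kept for Dppa4, Dppa5a and Dppa3, and Dppa2 kept 2 of 5 over the reprogramming libraries.

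Genes next to the members did not all move with them. Near Dppa3, Gdf3, a TGF-beta family ligand of ESCs, was called higher in KO on days 3, 5 and 7 (258 ± 48.9 normalised counts in Wt and 917 ± 131 in KO on day 7). Nanog was called on day 5 and was 0.92 higher on the log2 scale on day 7, under the required size. In iPSCs, where Dppa3 was higher in KO, Gdf3 was -0.28 and Nanog 0.33 on the log2 scale, and neither passed. Apobec1, 24.0 kb from Dppa3, was 0.97 higher in KO iPSCs (FDR = 0.000273), under the required size. Slc2a3, a glucose transporter gene 97.5 kb away, was called on day 7 (log2 fold change 1.30). Gm10420 and Gm10224, 65.7 and 68.1 kb away, were within 0.11 of 0 on the log2 scale at each stage.

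Near Dppa5a, Ooep, a maternal KH domain gene 7.93 kb away, rose with it: 14.5 ± 6.76 normalised counts in Wt and 131 ± 16.7 in KO on day 7 (log2 fold change 3.17, FDR = 8.02e-18). Ddx43, a germ cell RNA helicase gene 27.6 kb away, was at 6.42 ± 3.20 and 25.7 ± 4.11 (2.01, FDR = 1.04e-05). Mto1, a gene of mitochondrial tRNA modification, and Cgas, the cytosolic DNA sensor, were at -0.18 and 0.16 on the log2 scale on day 7 and were not called. Near Dppa2 and Dppa4 the other gene of the table within 100 kb, Gm7204, was at 663 ± 30.9 in Wt and 743 ± 44.1 in KO on day 7 and was not called.

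Other pluripotency genes were also higher in KO on days 5 and 7. Of 18 listed, 11 were called higher in KO on day 5 and 15 on day 7, with a median log2 fold change of 1.47 on day 7, against 3.18 for the 4 Dppa genes and -0.04 for all genes tested. Klf5 (432 ± 34.0 normalised counts in Wt, 1113 ± 123 in KO), Zfp42 (1163 ± 280.3 and 3811 ± 418), Esrrb (1951 ± 151 and 4236 ± 522) and Gdf3 had the lowest FDR on day 7. Lin28a, an RNA-binding protein gene of early pluripotency that is also named after its values were seen, was -0.12 on the log2 scale on day 7. In iPSCs 1 of 18 was called higher, Tbx3, a gene named here after its values were seen. In ESCs 0 of 18 were called higher (3 at an unadjusted p under 0.05 and 0 by edgeR).

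The 2-cell genes downstream of Dppa2 and Dppa4 were not called higher in KO on day 7, where both of these members were. Their summed level did rise from day 5 to day 7 in both genotypes. In Wt it was 63.5 to 110.4 normalised counts on day 5 and 188.3 to 217.1 on day 7. In KO it was 23.9 to 45.8 and 161.7 to 208.3. On day 5 the sum in KO libraries thus lay below that in Wt libraries, with 0 genes called. The day 5 sum does not stand for the list. On that day 8 of the 12 genes had no read in any Wt library, and 3 had none in any KO library. The median log2 fold change of the 7 genes with an FDR was 2.24, the other direction. Of 12 genes measured (14 listed), 0 were called higher in KO on day 7 and 1 was called lower, Zfp352 (31.5 ± 1.86 normalised counts in Wt and 9.16 ± 2.18 in KO, FDR = 0.0116). Their median log2 fold change was -0.08 beside -0.04 for all genes. At an unadjusted p under 0.05, 1 was higher, and by edgeR 0. Zscan4f was at 0.343 and 3.30 normalised counts and Duxf3, the Dux gene, at 1.01 and 0, near or under the floor. The members of the Zscan4 group are near-identical copies whose reads may be divided among them.

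In iPSCs 5 of 12 of the 2-cell genes were called higher in KO. The summed level of the 12 was 1912, 9.47 and 1783 normalised counts in the Wt clones and 4572, 8551 and 4543 in the KO clones, with no overlap. The genes called were Zfp352, Tmem92, Tcstv1, Tcstv3 and Gm4340, named after their values were seen, with log2 fold changes of 2.56 to 3.32 and a median over the 12 of 2.37 beside 0.02 for all genes. Duxf3 and the 6 Zscan4 genes did not pass (FDR of 0.0529 to 0.489). The count was 9 without the Wt clone that stood apart, 3 without Wt clone 3 or KO clone 1, and 1 without KO clone 2. It was 12 by edgeR and by limma, 2 in a fit of the iPSC groups by themselves and 0 in the Wald test against a log2 fold change of 1. In ESCs the sums were 2833, 2944 and 2097 in Wt and 6078, 4782 and 4195 in KO, also without overlap, and 0 of the 7 with an FDR were called (0 at an unadjusted p under 0.05, 0 by edgeR and 1 by limma). Dppa3 and the sum did not order the KO iPSC clones alike. KO clone 3, with the highest Dppa3 (969), and KO clone 1, with the lowest (206), had nearly equal sums of 2-cell genes. Wt clone 2, with the sum of 9.47, had the lowest Dppa3 (54.3) and the highest Dppa4 (5393) of the Wt clones.

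**Figure D4:**
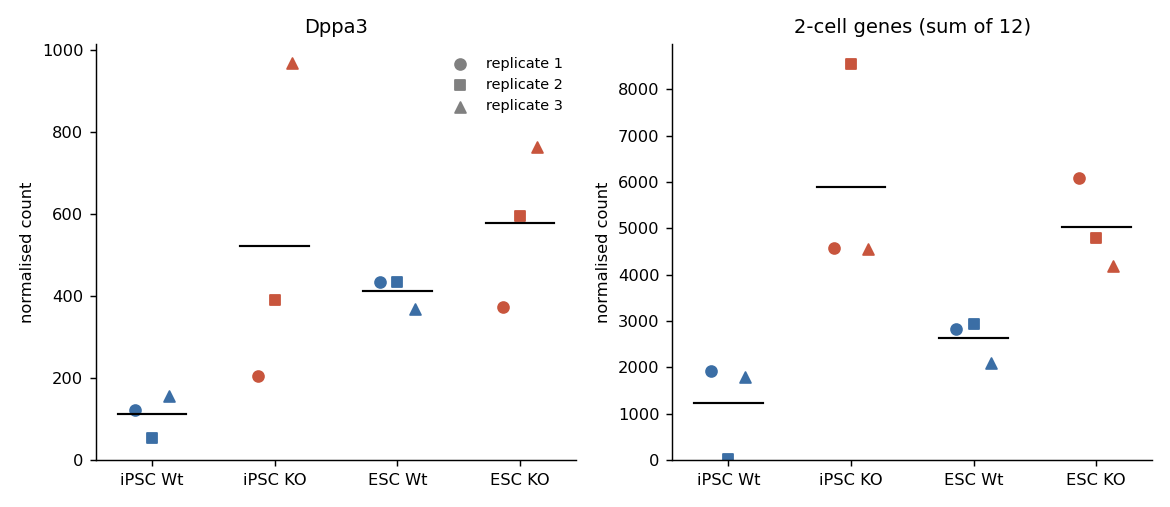
Normalised count of Dppa3 (left) and summed normalised count of 12 genes of the 2-cell embryo (right) in each iPSC and ESC library, with the symbol giving the replicate and the line the group mean; blue is Wt and red is KO. KO iPSC clones lie above Wt iPSC clones in both plots, and 1 Wt clone has a sum of 9.47.

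Among 8 genes of DNA methylation, the process that Dppa3 protein acts on, 3 were called higher in KO on day 7 and 0 in iPSCs, where Dppa3 differed (0 at an unadjusted p under 0.05 and 0 by edgeR). Tet1, a 5-methylcytosine oxidase gene, was at 1083 ± 313 normalised counts in Wt and 5385 ± 491 in KO on day 7. Dnmt3l, the cofactor of de novo methylation, was at 62.7 ± 55.4 and 1033 ± 278. Dnmt3b was at 414 ± 44.9 and 1499 ± 318. Uhrf1, whose product DPPA3 holds back, was at 4524 ± 269.6 and 8513 ± 671, a log2 fold change of 0.91 that passed FDR but not the size. In iPSCs Uhrf1 was at 0.04 on the log2 scale.

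Of the KH domain relatives of Dppa5a, 4 of 5 listed were measured and 2 were called higher in KO on day 7, Ooep and Khdc3 (30.7 ± 22.4 and 184 ± 25.6 normalised counts). Khdc3, a maternal gene, was also called in iPSCs (136 ± 57.2 in Wt and 507 ± 179 in KO), as Dppa3 was, and it stood second in likeness to Dppa3. Khdc1a and Khdc1c, the other relatives, were not called. Germ cell markers were called higher for 4 of 7 on day 7 (2 by limma), Dnd1 (21.4 ± 7.31 and 71.1 ± 8.46), Nanos3, Ddx4 and Dazl. Dazl was at 0 in Wt and 2.24 ± 1.61 in KO, near or under the floor. In iPSCs 1 of 7 was called, Stra8, named after its values were seen.

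Markers of other cells moved beside these results. On day 7, 3 of 12 fibroblast markers were called lower in KO: Dcn (3291 ± 303 and 1491 ± 307 normalised counts), Snai2 and Col1a1. Fn1 was not lower in KO, at 11590 ± 616 and 17014 ± 2090.5 (log2 fold change 0.55, FDR = 0.0458). The summed level of the 12 was 36059 to 49724 in Wt and 23303 to 42477 in KO, which overlap, whereas without Fn1 the sum was 25179.6 to 37811 in Wt and 8397 to 23391 in KO, which do not. In iPSCs 3 of 6 primitive endoderm markers were called higher in KO (2 by edgeR and 0 by limma), and the sum of the 6 was 624, 96.4 and 83.8 in the KO clones against 68.7 to 130.4 in Wt, so that KO clone 1 was high, the clone with the lowest Dppa3 of the KO clones. On days 5 and 7 0 of 6 were called, with 0 and 1 higher at an unadjusted p under 0.05 and 0 and 0 by edgeR. In iPSCs Fn1, named after its values were seen, was at 29284 ± 7487 in Wt and 44490 ± 2371 in KO (log2 fold change 0.60, FDR = 0.0441), and the other 11 markers summed to 164.9 to 205.8 in Wt clones and 184.0 to 253.6 in KO clones, which overlap. Of the 12, 1 was called, Col1a2, also named after its values were seen. The part of such cells in the results was not tested.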

How the data were processed

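Libraries were made by the authors with a stranded poly(A) kit, and single-end 75-base reads were trimmed with Cutadapt, aligned with STAR to GRCm38 and counted per gene with Rsubread. The deposited files hold raw counts per gene (19224103 to 39610939 a library, whole numbers), the authors' normalised counts (a signal equal to the count divided by the DESeq2 size factor), and log2 values (rlog) that the authors corrected for the date of library preparation. These dates were not used here, since the labels do not give them. Deposited tables of the authors' own comparisons (fold changes and p-values) were used to pair gene identifiers with names and for nothing else. Strand and multi-mapping settings of the counting are not given in the sources used here.

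Groups came from the sample titles. The counts of 21442 genes in 36 libraries were fitted in DESeq2 1.42.0 with 1 coefficient for each of 12 groups, and Wald tests with independent filtering compared KO with Wt at each stage, neighbouring stages within a genotype, day 5 KO with day 7 Wt, and the KO effect between stages. Calls needed FDR under 0.05 and a log2 fold change over 1 in size, and interactions needed FDR under 0.05. Levels are normalised counts, mean ± SD of 3 libraries. The p-values and standard errors of DESeq2 rest on 1 spread per gene, estimated over all 36 libraries. They do not measure the spread of the compared groups by themselves. For Dppa2, KO over Wt, the SE was 0.31 on day 7 and 0.29 in iPSCs. The SDs within groups on the log2 scale were 0.77 and 0.13 there. Some of the samples are parallel samples of 1 line. Alternatives were edgeR 4.0.16 (quasi-likelihood), TMM size factors, a filter of 10 counts in 3 libraries, no independent filtering, FDR by itself, a Wald test against a log2 fold change of 1, the compared groups by themselves, a replicate block, each library left out in turn, and limma 3.58.1 on the deposited log2 values. The fits were tested on simulated data first. That simulation gave all genes the same spread and changed only well-expressed genes. It does not cover the low counts of the members on days 3 and 5. Exons and positions are from GENCODE M21, which held 21390 of the 21442 genes (99.8%), and transcripts were aligned with Biopython 1.88.

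The members, gene lists and comparisons were chosen with earlier results of these data known. In each comparison the 4 members were named, with up to 4 genes of each list by lowest FDR on day 7, all genes of the table within 100 kb of a member, and the 5 genes most like each member. Genes named outside this rule are marked in the text.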

Additional observations from a re-analysis of the deposited data

Results flagged for a closer look

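The KO effect on 4 values differed between 2 stages by the interaction test of DESeq2. For Dppa4 it was 1.37 larger on the log2 scale on day 7 than on day 5, and it was -3.27 in iPSCs relative to day 7. For Dppa2 the change from day 7 to iPSCs was -3.19 and for Dppa5a it was -3.07. The first of these was not kept by edgeR or without 1 of 5 libraries, as given above, and the other 3 stayed past the threshold under each alternative run. With 3 samples a group, no library could be tested as an outlier.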

How the results depend on the processing

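Over 21 comparisons the number of members called kept within 1.5 times of its main value in 286 of 313 alternative fits. This tally includes comparisons with no member called, where 0 against 0 counts as kept. It also takes 3 against 4 members as kept, and for day 5 KO against day 7 Wt it counts higher calls only. It is thus no measure of how firm each call was. The Wald test against a log2 fold change of 1 gave 0 members on day 3, 1 on day 5, 0 in iPSCs, 0 for Wt from day 3 to day 5 and 2 for KO from day 7 to iPSCs. It also ended the calls of Dppa3 on day 7 (FDR = 0.345) and for Wt from day 7 to iPSCs (FDR = 0.143), of Dppa4 for KO from day 3 to day 5 (FDR = 1), and of the 3 members lower in day 5 KO than in day 7 Wt. edgeR gave 0 on day 3, 0 for Wt from day 3 to day 5, 1 for KO from MEFs to day 3 and 0 for the KO effect on day 7 against day 5, and limma on the deposited values gave 0 on day 3. Fits of the compared groups by themselves gave 0 in iPSCs and 1 for Wt ESCs over iPSCs; for day 3, day 5 and Wt from day 3 to day 5 independent filtering there left called members with no adjusted p, and no count is given. Leaving out 1 library gave 0 to 1 on day 3, for Wt from day 3 to day 5, for Wt ESCs over iPSCs and for the KO effect on day 7 against day 5, 1 to 2 for KO from MEFs to day 3, and 3 to 4 for KO from day 7 to iPSCs. The cause was not tested.

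With 1 library left out, uncalled values changed sign. Dppa4 ranged from -0.12 to 0.76 on day 3 (KO over Wt), -0.17 to 0.77 for Wt from day 3 to day 5 and -0.076 to 0.086 for Wt ESCs over iPSCs. Dppa3 ranged from -0.23 to 0.96 for KO ESCs over iPSCs. The KO effect in ESCs against iPSCs ranged from -0.0022 to 0.16 for Dppa4 and from -0.30 to 0.043 for Dppa5a.

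The replicate block left each count of members as it was (4 on day 7, 3 on day 5, 1 on day 3 and 1 in iPSCs). Same-numbered libraries of the genotypes correlated at -0.12 to 0.29 in their deviations, 9 of 18 best with their own number. These matches were not spread evenly over the stages. On day 5 (0.0593 to 0.167) and day 7 (0.0838 to 0.230) each pair matched best with its own number. On day 3 replicates 1 (0.287) and 3 (0.145) did, and in MEFs and ESCs no pair did. Not every pair passed 0.1 at any stage, so the numbers were not taken to pair the libraries in the main fit. Whether same-numbered libraries of days 3, 5 and 7 shared a source was not tested. Depth limits the members other than Dppa4 before day 5 and Dppa2 and Dppa3 on day 5, where at least 1 genotype had 3 or fewer counts and a fold is a bound, a ratio with its counting interval, or not given.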
